A study of Gallus gallus with 6 samples.

Results

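The genes described here belong to the integrated stress response, the pathway centred on the transcription factor ATF4, and to the amino acid supply that it controls. They were listed by role from pathway knowledge, as kinases, transcription factors, effectors, synthetic enzymes, carriers and tRNA ligases, and matched by chicken gene symbol to the NCBI gene numbers of the expression files. Of 33 genes listed, 25 matched by symbol and 3 tRNA ligases by their older symbols GARS, WARS and NARS, out of 24098 genes in the files. All 28 passed the filter on low values and are among the 13311 genes tested. ATF5, DDIT3, TRIB3, SHMT2 and SLC3A2 did not match and were not analysed here. Their absence removes CHOP, the product of DDIT3, and the heavy chain of the main amino acid exchanger from the picture.

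RNA came from entire embryos of the chicken, Gallus gallus, collected at stage 10 of the Hamburger-Hamilton series, when the heart tube, the first somites and the brain vesicles are present. There were 3 control libraries and 3 libraries of embryos treated with zinc oxide nanoparticles, called control 1 to 3 and ZnO 1 to 3 below. The labels give no dose, route or duration, no strain, and no treatment of the controls, and they do not say whether a library is 1 embryo or a pool. All p-values thus describe the spread among 6 libraries, which may be technical in part. The incubation windows in the labels start at 34 h and end at 39, 40 and 41 h for control 1 to 3 and at 42, 43 and 44 h for ZnO 1 to 3. These ends rise by 1 h with each library in turn, so they may not be measured ages, and any difference in age that they do record cannot be told apart from treatment. The title of the series concerns oxidant stress and cranial neural crest development, and the only contrast in the design is treatment against control.

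In vertebrate cells, 4 kinases sense different stresses and phosphorylate the translation factor eIF2. General protein synthesis then falls while the mRNA of ATF4 is translated more, so the activity of ATF4 is set largely by translation and is not read directly from its transcript. ATF4 raises genes that make serine, asparagine, proline and glycine, import amino acids and charge tRNAs, together with feedback inhibitors of growth. Many of the same genes also supply growing tissue, so they can be expressed without stress.

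The values are FPKM, read numbers scaled to gene length and library depth. The depths, solved from the steps of the values, were 18208501 to 19843561 reads, and the member with the fewest reads in a library, ATF3, had 198. Marker genes of neural tube, crest, somites, heart, endothelium, surface ectoderm, notochord, erythroid cells and yolk sac were present for each tissue, though not every listed gene was measured, and HBE1 (erythroid), RBP4 (yolk sac) and MESP2 (somite) were under 1 FPKM in mean level. ZnO 1 stood apart. Its values summed to 480047 FPKM, against 531480 to 559992 in the other libraries, and it was the lowest library for all 63 tested genes of cytosolic ribosomal proteins. Control 2 was the lowest control for 61 of these genes, and it stays in the values given without ZnO 1. The plot of differences between groups gives every member with and without ZnO 1.

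No member passed the test between treated and control embryos. With limma on log2(FPKM + 1) and Benjamini-Hochberg adjustment over 13311 genes, 0 of 28 members had an adjusted p under 0.05, as did 0.0% of all genes. With limma-voom on the recovered reads the count was also 0. At an unadjusted p under 0.05 there were 2 members, PCK2 and DDIT4, both higher. Over all genes 5.66% reached that level, 3.06% as higher and 2.61% as lower. All 3 treated libraries lay above all 3 controls for 3 members, PCK2, DDIT4 and SLC7A5, and below them for 0, against 5.6% and 5.89% of all genes. In either direction that is 3 of 28 members, against 11.5% of all genes, and the calls were too few to read the split by direction. Group means of log2(FPKM + 1) were higher in treated embryos for 11 members and lower for 17. The median log2 fold change was -0.07, against -0.03 over all genes. With the values rescaled to a common sum the split was 14 to 14, and the number of higher genes in the whole table went from 5847 to 7213.

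**Figure D1:**
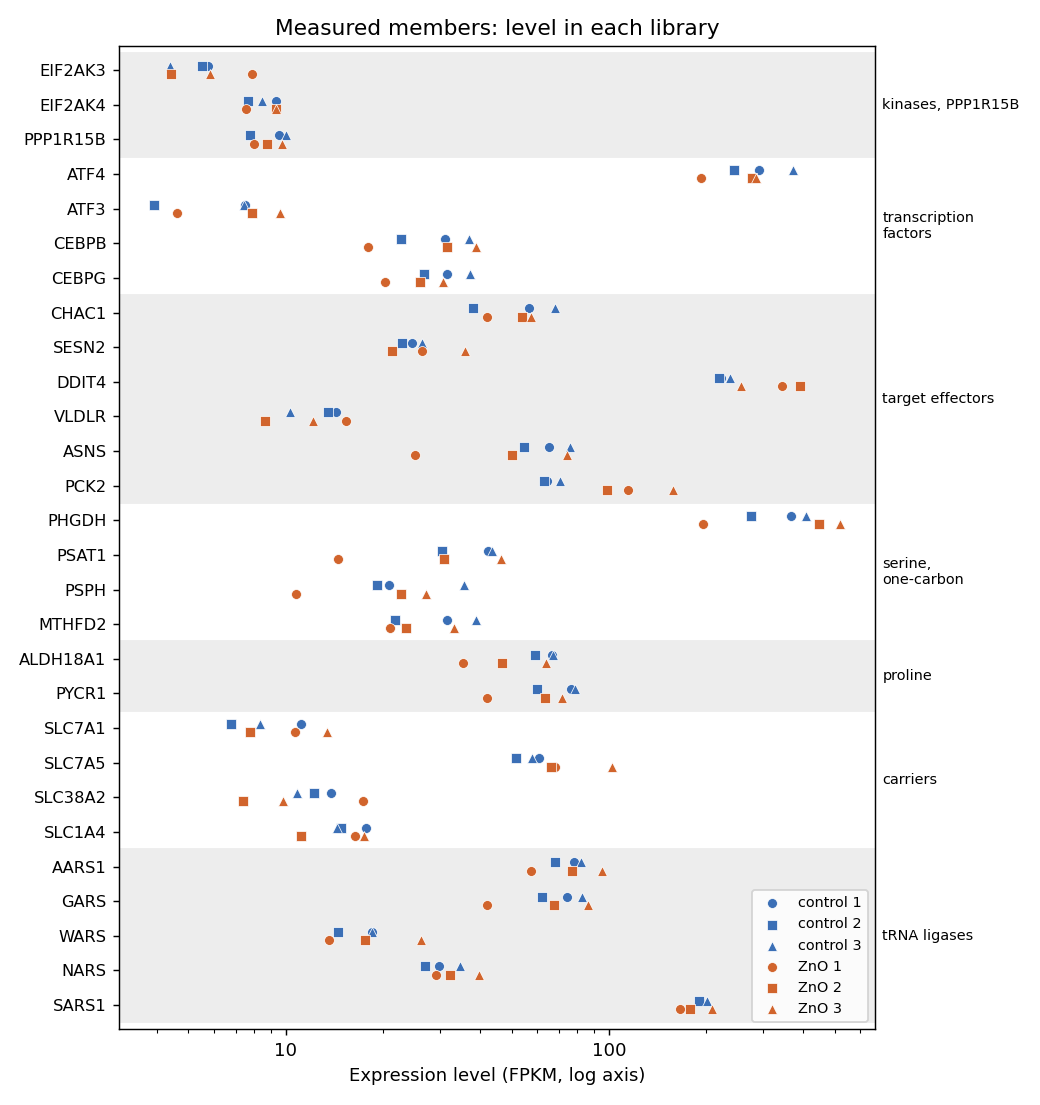
Level of each of the 28 measured members in the 6 libraries, in FPKM on a log axis. Blue symbols are controls and orange symbols treated embryos, and the shape gives the replicate number. PHGDH, ATF4, DDIT4 and SARS1 are the most abundant members, and for PCK2, DDIT4 and SLC7A5 all orange symbols lie to the right of all blue ones.

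The members spanned a wide range of levels. PHGDH, ATF4 and DDIT4 had mean levels at percentiles 98.6, 98.1 and 98.1 of the genes tested, and SARS1 was at 96.9. The least abundant were EIF2AK3, ATF3 and EIF2AK4, at percentiles 30.8, 35.8 and 42.8. FPKM is scaled to length, so these levels can be set beside each other.

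Among the sensors and their counterpart phosphatase, no member separated the groups. EIF2AK3 encodes PERK, the kinase of the endoplasmic reticulum, and had 5.74, 5.53 and 4.40 FPKM in control 1 to 3 and 7.85, 4.41 and 5.83 FPKM in ZnO 1 to 3. ZnO 1 was the highest library and ZnO 2 lay at the level of the lowest control. EIF2AK4 encodes GCN2, which binds uncharged tRNA, and stayed between 7.54 and 9.36 FPKM in all libraries. PPP1R15B, the constitutive subunit that guides the eIF2 phosphatase, stayed between 7.76 and 10.05 FPKM. With SARS1 they were the 3 steadiest members, with folds of 1.24 for EIF2AK4, 1.26 for SARS1 and 1.30 for PPP1R15B between the highest and lowest libraries.

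The transcription factors overlapped between groups, with wide ranges within each group. ATF4 (gene ID 395693) had 291, 243 and 371 FPKM in controls, against 193, 277 and 286 FPKM in treated embryos. Only ZnO 1 fell below the lowest control, and the log2 fold change of -0.26 had a 95% interval of -0.80 to 0.28. Without ZnO 1 it was -0.08. CEBPG, a small partner that forms dimers with ATF4, had 31.5, 26.8 and 37.2 FPKM in controls, against 20.3, 26.1 and 30.6 FPKM in treated embryos. The order of the 6 libraries was nearly that of ATF4, and the ratio of both genes moved only 1.17-fold over the libraries while each moved 1.92-fold and 1.83-fold. Over all genes, 39 of 13180 had a steadier ratio to ATF4.

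CEBPB, another partner of ATF4 that also acts in inflammation, had 31.2, 22.8 and 36.8 FPKM in controls, against 18.0, 31.6 and 38.8 FPKM in treated embryos. ATF3, a repressor induced by many stresses, had 7.50, 3.90 and 7.41 FPKM in controls, against 4.59, 7.86 and 9.61 FPKM in treated embryos. For both genes control 2 and ZnO 1 were the 2 lowest libraries and ZnO 3 the highest, and the groups overlapped. For ATF3, ZnO 2 and ZnO 3 lay above every control, and ZnO 1 lay within the range of the controls. Without ZnO 1 the log2 fold change of ATF3 went from 0.20 to 0.46, and that of CEBPB from -0.08 to 0.23.

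The effectors held the largest differences. PCK2 (gene ID 396457), the mitochondrial phosphoenolpyruvate carboxykinase and an ATF4 target in mammalian cells, had 64.5, 63.2 and 70.7 FPKM in controls. In treated embryos it had 115, 99.1 and 158 FPKM. Every treated library lay above every control, and the means, 66.1 ± 4.01 and 124 ± 30.6 FPKM (SD, n = 3), differed 1.88-fold. The log2 fold change was 0.87 ± 0.20 SE with an interval of 0.41 to 1.33. The unadjusted p of 0.00232 became an adjusted p of 0.746 over all genes in limma. An exact two-sided permutation test gave p = 0.1, the smallest that 3 against 3 libraries allow. The log2 fold change was 0.91 without ZnO 1, and between 0.68 and 1.02 without any one library. The adjusted p was 0.201 without ZnO 1, when 0.0301% of all genes passed.

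DDIT4 (gene ID 107053650) encodes REDD1, an inhibitor of the growth kinase mTORC1 that also responds to low oxygen and glucocorticoids. It had 223, 219.6 and 238 FPKM in controls, against 343, 391 and 256 FPKM in treated embryos. The controls agreed closely, with a coefficient of variation of 4.24%, and ZnO 3 was only slightly above them. Its log2 fold change was 0.52 ± 0.20 SE (limma adjusted p = 0.861), and 0.48 without ZnO 1. PCK2 and DDIT4 differed in which treated library was highest, ZnO 3 for PCK2 and ZnO 2 for DDIT4.

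The other effectors overlapped between groups. ASNS, asparagine synthetase, had 65.3, 54.8 and 75.6 FPKM in controls, against 25.1, 50.3 and 74.1 FPKM in treated embryos. It was lowest in ZnO 1 at 3.01-fold below control 3, while ZnO 3 lay at the level of the highest control. The log2 fold change of -0.50 became -0.08 without ZnO 1. CHAC1, an enzyme that breaks down glutathione, ranged from 37.9 to 68.1 FPKM in controls and from 41.9 to 57.4 FPKM in treated embryos. SESN2, a leucine sensor upstream of mTORC1, had 22.9 to 26.5 FPKM in controls and 35.8 FPKM in ZnO 3, but 21.3 FPKM in ZnO 2. VLDLR, a lipoprotein receptor that ATF4 raises in mammalian cells and that is also the yolk receptor of the hen, ranged from 10.3 to 14.3 FPKM in controls and from 8.61 to 15.4 FPKM in treated embryos. Its log2 fold change of -0.09 became -0.27 without ZnO 1, its highest library.

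**Figure D2:**
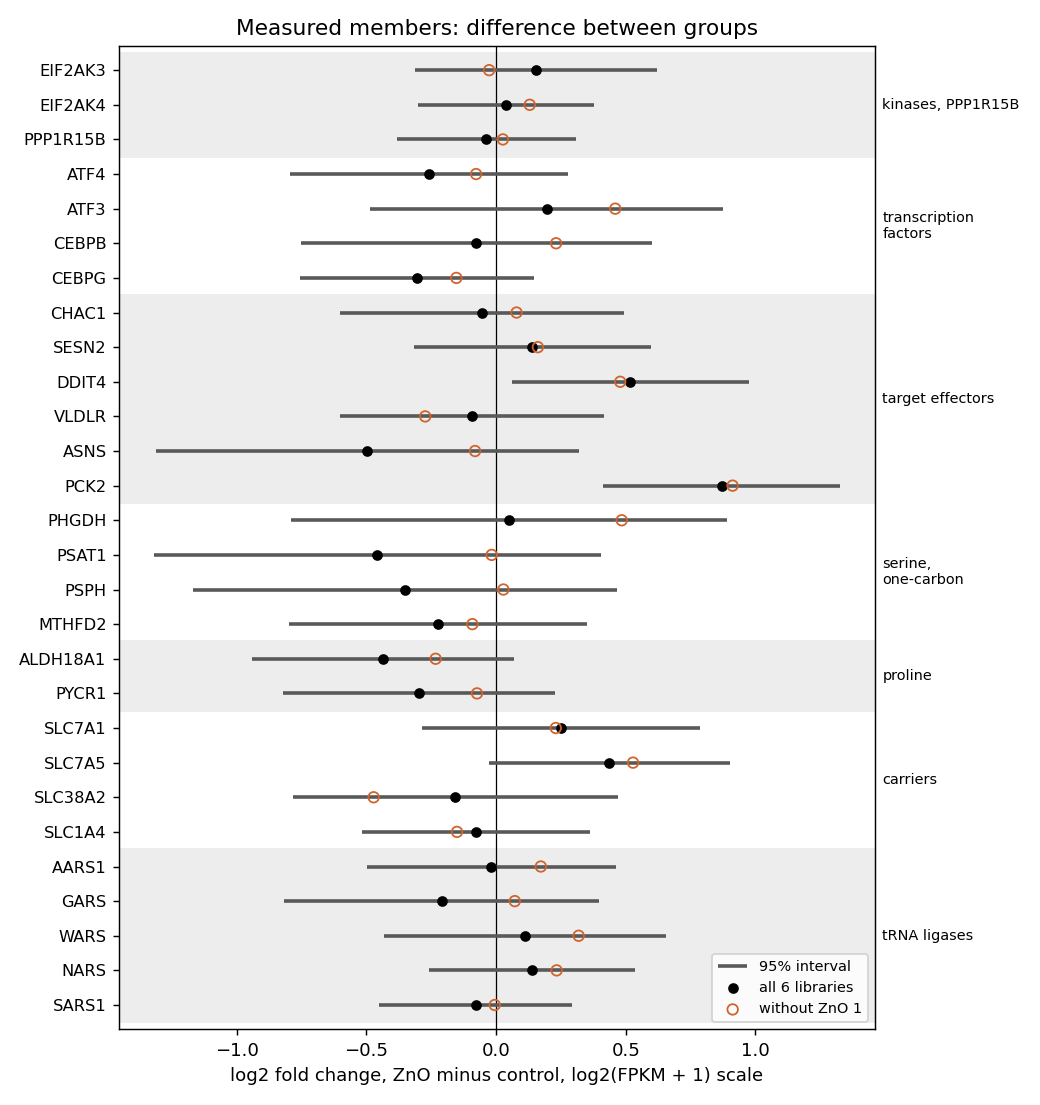
Difference between groups for each member, as the log2 fold change between treated and control means of log2(FPKM + 1), with its 95% interval over all 6 libraries (black) and the value without ZnO 1 (open orange circle). The intervals of PCK2 and DDIT4 alone leave out 0, before adjustment over all genes, and the circles of ASNS, PSAT1, PSPH and PHGDH lie well to the right of their black points.

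The serine pathway makes serine from a glycolytic intermediate in 3 steps, catalysed by PHGDH, PSAT1 and PSPH, and feeds one-carbon units into nucleotide synthesis through MTHFD2. PHGDH, the first enzyme, had 367, 276 and 406 FPKM in controls, against 195, 448 and 521 FPKM in treated embryos. PSAT1, the second, had 42.4, 30.5 and 43.4 FPKM and 14.5, 30.9 and 46.3 FPKM. PSPH, the third, had 20.9, 19.2 and 35.7 FPKM and 10.8, 22.7 and 27.1 FPKM. All these enzymes were lowest in ZnO 1, and the treated group held both the lowest and the highest library for PHGDH and PSAT1.

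MTHFD2, the mitochondrial folate enzyme, had 31.6, 21.7 and 38.7 FPKM in controls, against 21.0, 23.6 and 33.2 FPKM in treated embryos. The median fold between the highest and lowest library was 2.93 for these 4 genes, against 1.65 over all genes tested. It was 2.67 for PHGDH, 3.19 for PSAT1 and 3.32 for PSPH, and 1.84 for MTHFD2, below the 1.89 of the median member. Their median log2 fold change was -0.29, and 0.0055 without ZnO 1. That of PHGDH alone went from 0.05 to 0.48 (unadjusted p = 0.0347, limma adjusted p = 0.319 without ZnO 1), where 14.6% of all genes had an unadjusted p under 0.05.

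Proline is made from glutamate by ALDH18A1 and PYCR1. ALDH18A1 had 66.8, 59.2 and 67.2 FPKM in controls, against 35.3, 46.6 and 63.7 FPKM in treated embryos. PYCR1 had 76.2, 60.0 and 78.5 FPKM in controls, against 41.9, 63.4 and 71.8 FPKM in treated embryos. Both were lowest in ZnO 1 and highest in control 3, with log2 fold changes of -0.44 and -0.30. Without ZnO 1 these were -0.23 and -0.07.

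Carriers did not share a pattern. SLC7A5 (gene ID 415832), the light chain of the exchanger for large neutral amino acids, had 60.8, 51.8 and 58.0 FPKM in controls, against 67.9, 66.1 and 102 FPKM in treated embryos. All treated libraries were above all controls, ZnO 3 most of all. The log2 fold change of 0.44 ± 0.20 SE had an interval of -0.03 to 0.90 (limma adjusted p = 0.895), and without ZnO 3 it was 0.24. Without ZnO 1 it was 0.53 (limma adjusted p = 0.305). SLC7A1, the carrier of cationic amino acids, had 6.78 to 11.2 FPKM in controls and 7.75 to 13.5 FPKM in treated embryos. SLC38A2, which takes up neutral amino acids with sodium, had 13.8, 12.2 and 10.8 FPKM in controls, against 17.3, 7.39 and 9.81 FPKM in treated embryos. ZnO 1 was above every control and the other treated libraries below every control. The log2 fold change of SLC38A2, -0.16, became -0.47 without ZnO 1 (unadjusted p = 0.0227, limma adjusted p = 0.293). Over all genes, 14.6% had an unadjusted p under 0.05 in that fit. It leaves out the treated library that lay above the controls, so it is not a separate result. SLC1A4, an exchanger of alanine, serine and cysteine, ranged from 14.4 to 17.7 FPKM in controls and from 11.1 to 17.4 FPKM in treated embryos. Over all 6 libraries SLC7A1, SLC38A2 and SLC1A4 overlapped between groups.

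The tRNA ligases attach amino acids to their tRNAs, and the 5 listed here are ATF4 targets in mammalian cells. All 5 were highest in ZnO 3, as were 22.0% of all genes, and control 2 was the lowest control for all 5. AARS1, for alanine, had 77.9, 68.2 and 82.0 FPKM in controls, against 57.3, 77.1 and 95.1 FPKM in treated embryos. GARS, for glycine, had 74.1, 62.1 and 82.7 FPKM and 41.9, 67.5 and 86.0 FPKM. The control and treated means were 76.1 and 76.5 FPKM for AARS1, and 72.9 and 65.1 FPKM for GARS. The median coefficient of variation of the 5 ligases was 12.8% in controls and 24.7% in treated embryos, against 13.6% and 20.5% over all genes. WARS, for tryptophan, ranged from 13.6 FPKM in ZnO 1 to 26.3 FPKM in ZnO 3, and NARS, for asparagine, from 26.9 FPKM in control 2 to 39.8 FPKM in ZnO 3. SARS1, for serine, was the steadiest in controls, at 191, 189.6 and 202 FPKM, and had 166, 179 and 209 FPKM in treated embryos.

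**Figure D3:**
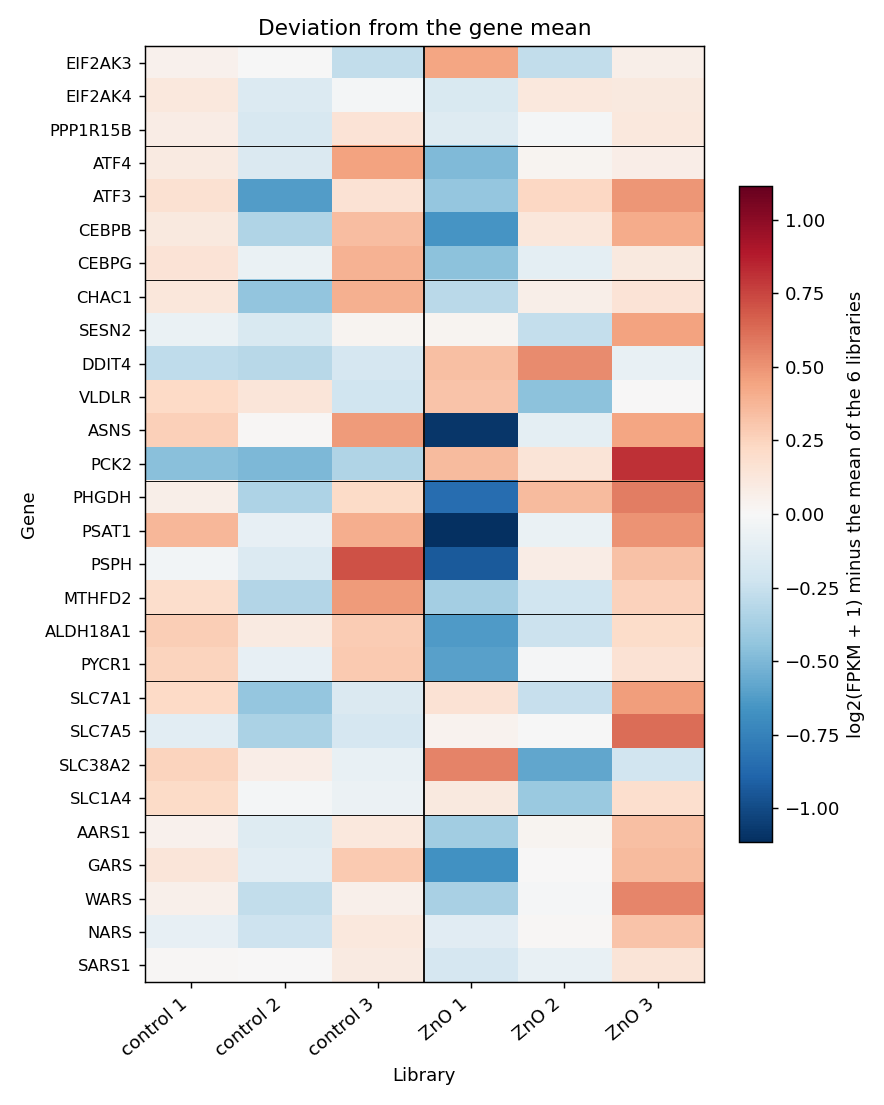
Deviation of each member from its own mean in each library, on the log2(FPKM + 1) scale, with red above and blue below the mean and a vertical line between controls and treated embryos. ZnO 1 is blue for the enzymes of serine, asparagine and proline synthesis and for the tRNA ligases, while PCK2 is blue in all controls and red in all treated libraries.

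The same few libraries were lowest or highest for many members. How the variation divides between libraries and groups was not tested. The median coefficient of variation of the members was 14.0% in controls and 26.3% in treated embryos, against 13.6% and 20.5% over all genes. ZnO 1 was the lowest library for 15 of 28 members, against 30.7% of all genes, and ZnO 3 the highest for 13, against 22.0%. Control 2 was the lowest control for 24 members, against 44.2% of all genes. EIF2AK3, VLDLR and SLC38A2 were the 3 members with their highest level in ZnO 1, against 24.9% of all genes. The median level of the members, relative to the mean of the 6 libraries, was 0.11, -0.16 and 0.14 in control 1 to 3 and -0.33, -0.014 and 0.29 in ZnO 1 to 3 on the log2 scale.

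Erythroid and ribosomal protein genes were also lowest in ZnO 1, and erythroid genes highest in ZnO 3. The 8 tested genes of primitive erythroid cells, of 13 listed, had a median level of -0.92 in ZnO 1 and 0.88 in ZnO 3, against -0.20 to 0.14 in controls. The summed level of the 9 measured was 1330 to 1821 FPKM in controls and 854 to 2752 FPKM in treated embryos, and 0 of them were at 0 in all libraries, with HBE1 under 1 FPKM. The ribosomal protein genes had a median level of -0.58 in ZnO 1 and -0.05 to 0.32 in the other libraries. Markers of other tissues gave other patterns. The 11 tested yolk sac markers had median levels of -0.02, 0.44 and -0.50 in control 1 to 3 and 0.56, -0.66 and 0.06 in ZnO 1 to 3. Endothelium markers were also highest in ZnO 1, with a median level of 0.29. Of 8 neural tube markers, 6 were higher and 2 lower in treated embryos (median log2 fold change 0.42), with summed levels of 144 to 179 FPKM in controls and 170 to 199 FPKM in treated embryos. Of 6 somite markers tested, 2 were higher and 4 lower (median -0.26), with summed levels of 87.1 to 107 FPKM and 66.2 to 81.4 FPKM. Of 5 heart markers tested, 1 was higher and 4 lower (median -0.36), with summed levels of 602 to 833 FPKM and 502 to 612 FPKM. The part of these shifts in the levels of the members was not tested. In whole embryos, fewer cells of a type and less RNA per cell cannot be told apart.

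**Figure D4:**
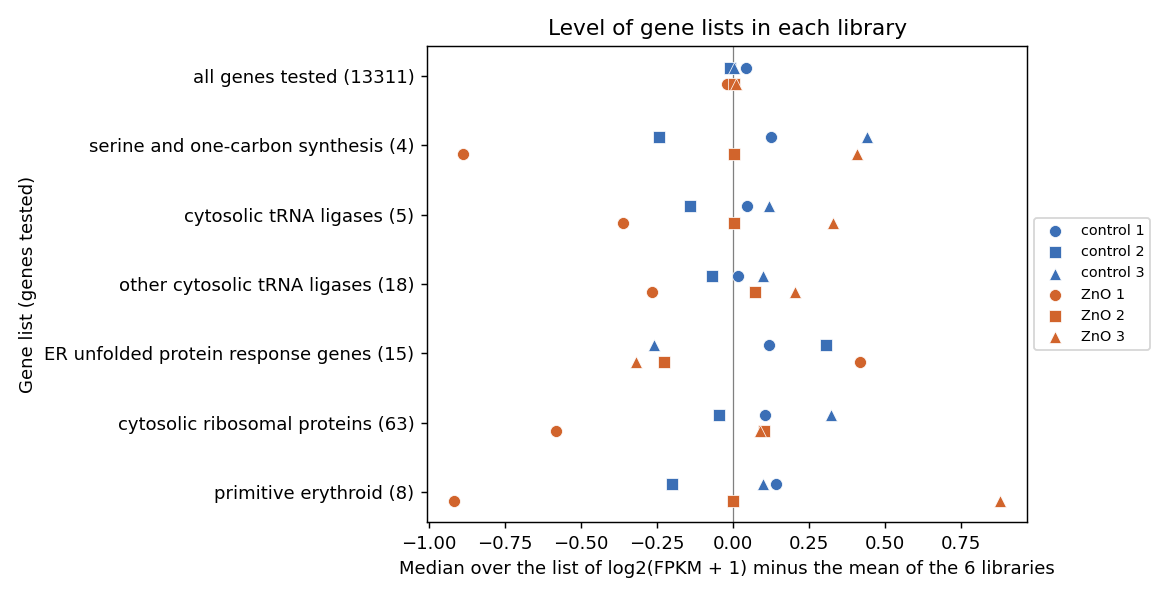
Median level of gene lists in each library relative to the mean of the 6 libraries, on the log2(FPKM + 1) scale, with the number of genes tested in brackets. ZnO 1 lies lowest for serine enzymes (-0.89), tRNA ligases (-0.36), ribosomal proteins (-0.58) and erythroid genes (-0.92), and highest for the genes of the unfolded protein response (0.42).

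Some members kept a fixed proportion to each other while their levels moved. ASNS and PSAT1 moved 3.01-fold and 3.19-fold between their extreme libraries, but the ratio of PSAT1 to ASNS was 0.650, 0.557 and 0.574 in controls and 0.577, 0.615 and 0.625 in treated embryos. Of 13180 genes above 0 in every library, none had a steadier ratio to ASNS than PSAT1, and none had a steadier ratio to PSAT1 than ASNS. This was the steadiest of the 378 pairs of members, at 1.17-fold between the highest and the lowest library. The pairs and ratios were chosen after their values were seen and carry no test, and all genes of a library share its depth and its RNA.

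Other proportions differed between groups. The ratio of PCK2 to ASNS was 0.989, 1.15 and 0.935 in controls and 4.57, 1.97 and 2.13 in treated embryos. Both genes had similar levels in controls, while PCK2 was in excess in every treated library. The ratio of SLC7A5 to ASNS was 0.768 to 0.945 in controls and 1.31 to 2.70 in treated embryos. Of all other genes tested, 13.9% had a ratio to ASNS that was higher in every treated library.

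Within the serine pathway, the ratio of PHGDH to PSAT1 was 8.64, 9.05 and 9.36 in controls and 13.5, 14.5 and 11.3 in treated embryos. The ratio of PHGDH to PSPH was 17.5, 14.4 and 11.4 in controls and 18.1, 19.7 and 19.2 in treated embryos. The transcript of the first enzyme was in greater excess over those of the next ones in every treated library, including ZnO 1, in which all were low. The share of all genes with such a shift was 8.63% for PSAT1 and 6.11% for PSPH. For PSPH the gap between groups was narrow, from 17.5 in control 1 to 18.1 in ZnO 1. The ratio of ASNS to ATF4 overlapped between groups, at 0.204 to 0.225 in controls and 0.130 to 0.259 in treated embryos. So did that of PSAT1 to ATF4. The ratio of PCK2 to ATF4 was higher in every treated library, at 0.191 to 0.260 in controls and 0.357 to 0.596 in treated embryos. That of CHAC1 to ATF4 was barely so, with 0.1946 as the highest control and 0.1950 as the lowest treated value. Of all other genes tested, 18.7% had such a shift in their ratio to ATF4. Over all 378 pairs, 87 ratios did not overlap between groups (23.0%), and the share over pairs of all genes was not worked out. PCK2 took part in 23 of its 27 pairs in this way and SLC7A5 in 17 of 27, while the median member did so in 18.5%. The levels of PCK2 and SLC7A5 did not overlap between groups, so these counts are not a separate result.

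**Figure D5:**
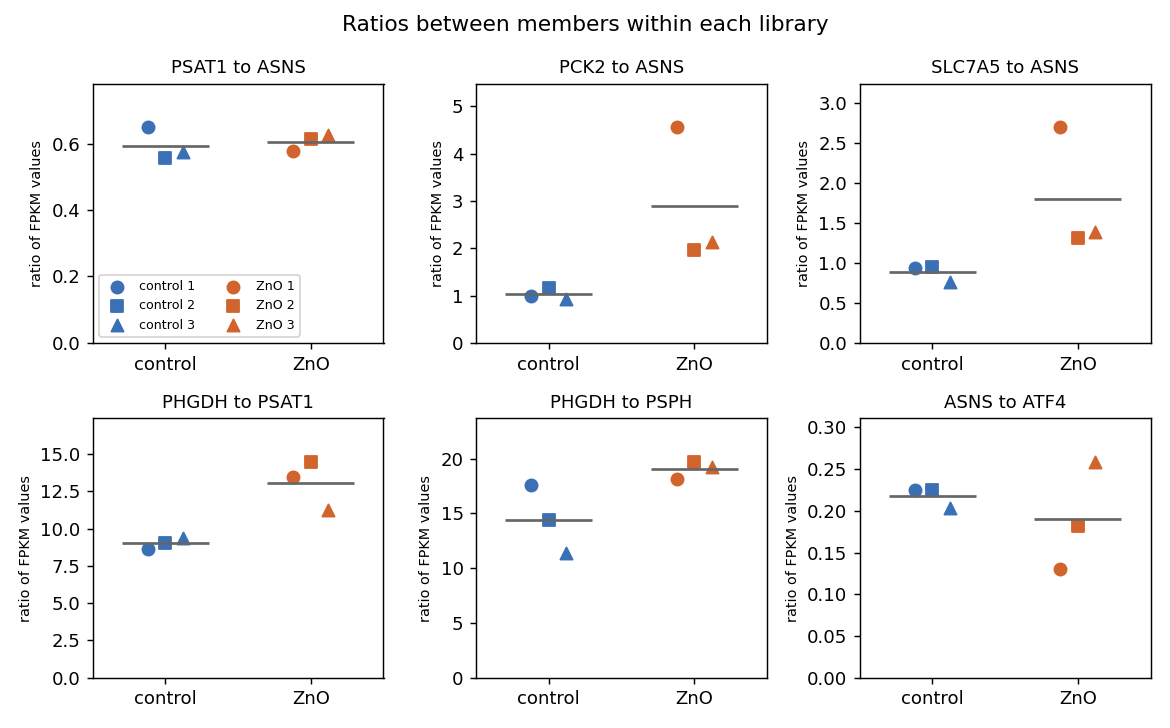
Ratios of FPKM values between pairs of members within each library, with a grey line at the group mean and each axis starting at 0. The ratio of PSAT1 to ASNS stays between 0.557 and 0.650 in all libraries, while those of PCK2 to ASNS and of PHGDH to PSAT1 are higher in every treated library than in any control.

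Of the other genes of the pathway, 0 of 159 tested had an adjusted p under 0.05 in limma. An unadjusted p under that value was found for 6, namely RPTOR, ADM2, SLC7A11, ASS1, EIF2AK1 and SHMT1. Over all genes, 5.66% reached that unadjusted level and 11.5% did not overlap between groups. The genes named below were picked by the smallest p in each list. Of 20 further genes of eIF2 and its exchange factor eIF2B, 5 were higher and 15 lower, with a median log2 fold change of -0.10. EIF2AK1, the kinase that senses haem, had 37.0, 35.8 and 30.1 FPKM in controls, against 28.5, 26.0 and 26.4 FPKM in treated embryos. EIF2B5, the catalytic subunit of eIF2B, had 14.1, 10.8 and 13.1 FPKM in controls, against 14.6, 15.6 and 24.5 FPKM in treated embryos. The first was lower and the second higher in every treated library (limma adjusted p = 0.881 and 0.895). IMPACT, an inhibitor of GCN2, had 7.69 ± 1.28 and 5.68 ± 1.19 FPKM (SD, n = 3), with overlap. Without ZnO 1 this list turned to 13 higher and 7 lower, when 6486 of all genes were higher and 6825 lower.

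Of 26 further targets of ATF4 and CHOP, 11 were higher and 15 lower, with a median of -0.05. ADM2, a secreted peptide of the adrenomedullin family, had 28.2, 35.7 and 28.3 FPKM in controls, against 25.0, 17.2 and 17.8 FPKM in treated embryos. It was lower in every treated library, with a log2 fold change of -0.61 (limma adjusted p = 0.806). SLC7A11, the cystine carrier, overlapped between groups, and KLHL24 had 4.96 ± 0.457 and 6.56 ± 1.00 FPKM (SD, n = 3), higher in every treated library. Without ZnO 1, 16 of these targets were higher and 10 lower, against 6486 and 6825 of all genes.

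Of 18 further cytosolic tRNA ligases and their scaffold proteins, 9 were higher and 9 lower, with a median of -0.02. Of these, 13 were lowest in ZnO 1 and 11 highest in ZnO 3, the order seen for the 5 ligases above. TARS, for threonine, had 49.5, 46.3 and 45.3 FPKM in controls, against 27.0, 37.2 and 52.7 FPKM in treated embryos. YARS (49.2 ± 2.94 and 43.2 ± 4.91 FPKM, SD, n = 3) and LARS (25.3 ± 1.09 and 28.0 ± 4.07 FPKM) overlapped between groups. Of 15 mitochondrial ligases, 5 were higher and 10 lower (median -0.03), with RARS2 at 9.06 ± 0.493 and 7.85 ± 1.11 FPKM and YARS2 at 19.4 ± 3.19 and 23.0 ± 5.31 FPKM.

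Of 17 further genes of folate and glycine metabolism, 9 were higher and 8 lower, with a median of 0.03. SHMT1, the cytosolic counterpart of the SHMT2 enzyme, had 4.87, 4.46 and 4.92 FPKM in controls, against 5.23, 6.70 and 7.49 FPKM in treated embryos, without overlap (log2 fold change 0.37, limma adjusted p = 0.875). FTCD had 0.911 ± 0.393 and 2.26 ± 1.54 FPKM (SD, n = 3), with overlap. Its levels in ZnO 1 to 3 were 3.87, 0.799 and 2.12 FPKM. The control mean of FTCD was under 1 FPKM, so it passed the filter only through the treated group. Without ZnO 1, 14 of these genes were higher and 3 lower, against 6486 and 6825 of all genes.

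Of 11 further genes of amino acid synthesis, 7 were higher and 4 lower, with a median of 0.08. ASS1, the enzyme that joins citrulline and aspartate in arginine synthesis, had 12.7, 9.29 and 17.6 FPKM in controls, against 15.5, 24.6 and 44.7 FPKM in treated embryos. Its means differed 2.14-fold, ZnO 1 lay within the controls, and the log2 fold change was 0.96 ± 0.37 SE (limma adjusted p = 0.861). ASL, the next enzyme in that synthesis, had 1.69, 1.08 and 1.91 FPKM in controls, against 1.97, 2.25 and 2.47 FPKM in treated embryos, without overlap. GLUD2, a glutamate dehydrogenase, had 19.6 ± 2.85 and 27.8 ± 7.86 FPKM (SD, n = 3).

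Of 18 further amino acid carriers, 6 were higher and 12 lower (median -0.09). Of these, 10 had their highest level in ZnO 1, against 24.9% of all genes. SLC38A3, a glutamine carrier, had 10.9 FPKM in ZnO 1 and 2.02 to 4.59 FPKM in the other libraries. SLC6A15 (13.8 ± 2.39 and 10.5 ± 2.57 FPKM, SD, n = 3) and SLC43A2 (9.71 ± 1.57 and 12.6 ± 3.04 FPKM) overlapped between groups. Of 19 regulators of mTORC1, the growth kinase that DDIT4 and SESN2 restrain, 9 were higher and 10 lower (median -0.0066). RPTOR, the scaffold of mTORC1, had 9.05, 6.88 and 8.30 FPKM in controls, against 11.7, 11.3 and 11.1 FPKM in treated embryos, without overlap and with little spread (log2 fold change 0.45, limma adjusted p = 0.817). GATSL2 (10.6 ± 2.15 and 13.3 ± 2.14 FPKM) and RRAGD (6.53 ± 1.22 and 5.35 ± 1.28 FPKM) overlapped.

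The unfolded protein response of the endoplasmic reticulum includes a route into ATF4 through PERK, the eIF2 kinase described above. The genes listed for this response were not split by route. Of 15 tested genes of this response, 5 were higher and 10 lower, with a median log2 fold change of -0.11. XBP1, its transcription factor, had 113, 137 and 87.8 FPKM in controls, against 111, 70.6 and 77.5 FPKM in treated embryos, with overlap. SDF2L1 (21.2 ± 4.67 and 17.1 ± 2.31 FPKM, SD, n = 3) and MANF (314 ± 56.1 and 262 ± 49.9 FPKM) also overlapped. Of the 15 genes, 11 were highest in ZnO 1, against 24.9% of all genes. The enzymes of serine, asparagine and proline synthesis were lowest in that library. The unfolded protein response genes had median levels of 0.12, 0.31 and -0.26 in control 1 to 3. In ZnO 1 to 3 these levels were 0.42, -0.23 and -0.32, so ZnO 2 and ZnO 3 lay near control 3. Control 3 was the lowest control for 14 of the 15 genes. Without ZnO 1, 14 of 15 were lower and the median log2 fold change was -0.35. Over all genes 6825 were then lower and 6486 higher, with a median of -0.009.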

How the data were processed

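Each deposited file holds 1 FPKM value per gene for 1 library, a unit inferred from the values. The tools named, per the submitters' processing notes, are HTSeq 0.6.1, TopHat2 2.0.12 and Bowtie2 2.2.3, and the only build is mm10, of the mouse. The gene numbers are those of the chicken, so that build cannot describe these values, and the genome used is not known here. Parameters and strand use are not given in the sources used here. Reads of overlapping genes or close paralogs may therefore be mixed. Gene numbers were matched to RefSeq symbols (GRCg7b), 19704 of 24098. Genes averaging 1 FPKM or more went into a limma 3.58.1 fit (R 4.3.3, trend, two-sided) of log2(FPKM + 1), a scale that understates the change of low genes, with a threshold of 0.05 over 13311 genes. The fit was checked only on simulated data with independent libraries and changes far larger than those of the members. That check does not show how well changes of the members' size are found. Depths and reads were solved from the value steps. All 13311 genes gave whole reads within 0.005, against 1 of 300 with wrong depths, each shifted by a different factor. A common shift of all depths was not part of this comparison. A read number can also be too low where a shorter length fitted. The members, lists and tests were chosen with earlier results of these data known. Every measured member and, in each other list, the up to 3 genes with the smallest p were named, except where a result is not reported here. Promoter motifs and sequences were not analysed here.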

Additional observations from a re-analysis of the deposited data

How the results depend on the processing

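No member passed the threshold under any planned setting but one. Library weights, estimated without convergence at 0.131 to 14.6, called 5628 genes and 13 members (6822 genes at an unadjusted p under 0.05). Weights estimated gene by gene, chosen after seeing the data, called 200 genes and 1 member, PCK2 (adjusted p = 0.0492; 3122 genes unadjusted). The unadjusted count was 754 with all libraries, 1153 with no filter, 500 with a filter of at least 5 FPKM, and 396 to 1948 without any one library, where 0 to 4 genes passed. It was lowest without control 1 (396) and control 2 (414) and highest without ZnO 1. Members with higher means on the log2 scale numbered 6 to 16 without any one library, 7 without control 2 and 6 without ZnO 3. With the replicate block, 758 genes had an unadjusted p under 0.05 and 0 passed. Same-numbered libraries deviated with correlations of -0.03, -0.37 and 0.41, and not every library correlated best with its own number. The largest correlation, 0.58, was between control 2 and ZnO 1. Deviations from the mean of 3 libraries depend on each other, so these values cannot decide whether the numbers pair the libraries.

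Of 28 members, 12 kept their direction under all 15 alternatives, and 16 with log2 fold changes of at most 0.35 did not. Without any one library the values ranged from -0.19 to 0.11 for SLC1A4, -0.19 to 0.17 for AARS1, -0.027 to 0.13 for EIF2AK4, -0.067 to 0.46 for ATF3, -0.22 to 0.48 for PHGDH, -0.13 to 0.32 for WARS, -0.14 to 0.031 for PPP1R15B, -0.30 to 0.23 for CEBPB, -0.29 to 0.13 for CHAC1, -0.027 to 0.33 for EIF2AK3, -0.60 to 0.028 for PSPH, -0.44 to 0.072 for GARS, -0.27 to 0.11 for VLDLR, -0.47 to 0.090 for SLC38A2 and -0.051 to 0.31 for SESN2. With a common sum PPP1R15B was 0.018, CHAC1 0.0046 and AARS1 0.042. With library weights EIF2AK3 was -0.26, CEBPB 0.034, SESN2 -0.12, PSPH 0.095, SLC7A1 -0.37, AARS1 0.0057 and WARS -0.019. With weights gene by gene EIF2AK3 was -0.14, CEBPB 0.079, PSPH 0.032, SLC7A1 -0.11 and AARS1 0.056. Of 240 list medians, 6 moved by more than the spread between libraries. The causes were not tested.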
